A study of Homo sapiens with 4 samples.

Results

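Genes of cell adhesion to the basement membrane were followed in KYSE410, an established human cell line of esophageal squamous carcinoma grown in RPMI medium with serum. Cells received no drug or 20 nM YM155 for 6 h. The list held 32 genes of integrins, laminins, hemidesmosomes and focal adhesions, and a member was every probe set whose only annotated symbol was on it. For 29 of the 32 genes there were such probe sets, 100 in all, of the 19775 genes with a probe set of 1 symbol. The 4 probe sets of ITGB6 carry a second symbol, and LAMA3 and COL17A1 matched no probe set, so these 3 genes are not analysed here. The series held 2 untreated and 2 YM155 arrays of total RNA, and KYSE410 is 1 cell line, so the arrays do not sample different tumours. YM155 is a small molecule known for lowering survivin (BIRC5) expression. One protocol field speaks of 10 mM cisplatin for 12 h, but each treated sample is labelled with YM155, and that label is used. B1 and B2 stand, unexplained, in the titles of the treated samples, and the untreated titles have no such code. Whether the 2 arrays of a group came from separate cultures is not stated, so p-values rest on a spread between arrays that may be only technical.

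Integrins are receptors of 1 α and 1 β subunit that span the membrane and bind matrix proteins. In basal cells of squamous epithelium, the integrin of ITGA6 and ITGB4 anchors keratin filaments to laminin through the hemidesmosome, with plectin and dystonin as linkers. Integrins with the ITGB1 or ITGAV subunit instead gather talin, kindlin, vinculin, zyxin and paxillin into focal adhesions, which hold actin filaments and signal through focal adhesion kinase. Values here are log2 of the intensity of a probe set, already normalized across arrays, and differences are YM155 minus untreated. Each gene is given by its probe set of highest mean, and levels of different genes are not compared, because probe sets differ in their response.

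The markers of basal squamous epithelium that could be read had signal in these cells. Of 13 listed, 11 had a probe set of 1 symbol, all 11 passed the filter on dim signal, and 9 had means above 8 log2. TP63 and KRT6A had no such probe set and were not read. S100A2 read 12.37 and 13.05 log2 in the untreated and 12.94 and 13.00 in the YM155 arrays, and SFN 12.25, 12.74, 13.15 and 13.19 in the same order. The summed intensity of the 11 markers was 21234 and 25872 without drug and 29483 and 30394 with it, and its part in the results below was not tested. Of the markers of other cells, 5 of 12 for fibroblasts, 5 of 8 for leukocytes and 3 of 8 for endothelium passed the filter at 3.32 log2, none with a mean above 6.16. The brightest were COL1A1 (6.16) and ACTA2 (5.22), ITGB2 (4.36) and CSF1R (3.97), and CLDN5 (5.19) and PECAM1 (4.29), while COL1A2, COL3A1, POSTN, PTPRC, CDH5 and KDR lay below the filter. Summed intensities of these lists overlapped between the groups for fibroblast (206 to 241 untreated, 197 to 234 YM155), leukocyte (85.0 to 95.4 and 93.2 to 94.3) and endothelial markers (98.1 to 107.5 and 102.3 to 104.2). The 3' minus 5' signal of ACTB, a measure of RNA integrity, was 2.72 and 2.18 log2 without drug and 2.10 and 2.95 with it, so it did not separate the groups. That of GAPDH was 0.04 on both untreated arrays and 0.03 and 0.21 on the YM155 arrays, so YM155 replicate 2 was highest in both, and the part of this in the results was not tested.

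No adhesion gene passed the adjusted threshold, and positive differences were more frequent than negative ones. The arrays measure bulk RNA, so a change in the cells present and in RNA per cell cannot be told apart. Of 29 genes, 18 had positive and 11 negative differences, with a median of 0.13 log2, against 47.1% positive and a median of -0.02 over all 14043 genes tested. With all probe sets of a gene averaged, 16 of 29 were positive, and 5 of the 18 (ITGB1, LAMB3, COL7A1, FERMT1 and TNC) turned negative when 1 array was left out. Both YM155 arrays lay above both untreated arrays for 13 of the 29 genes (44.8%, against 19.3% of all genes) and below them for 5 (17.2%, against 25.6%). Some of these gaps were near ties. LAMC1 read 9.650 log2 in untreated replicate 1 and 9.655 in YM155 replicate 2, and ITGA6 9.301 in untreated replicate 2 and 9.308 in YM155 replicate 1. On the lower side, TLN1 read 6.045 in untreated replicate 2 and 6.033 in YM155 replicate 1. By limma with Benjamini-Hochberg adjustment over all genes, 0 of the 29 and 0% of all genes passed at 0.05, and the members' adjusted p ran from 0.197 to 0.9997. At an unadjusted p under 0.05 there were 7 members higher (24.1%, against 5.23% of all genes) and 1 lower (against 7.48%). The 7 were THBS1, ITGB8, ZYX, ITGA2, VCL, ITGAV and PLEC, and the 1 was ITGB4. Without untreated replicate 1, limma called 1 member higher, PLEC (0.93 log2, adjusted p = 0.0413), and 1 lower, ITGA5 (-1.17, adjusted p = 0.0407), beside 8.01% of all genes; leaving out any other array gave 0 members. That fit has 1 untreated array, whose spread is taken to equal that of the YM155 group.

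**Figure D1:**
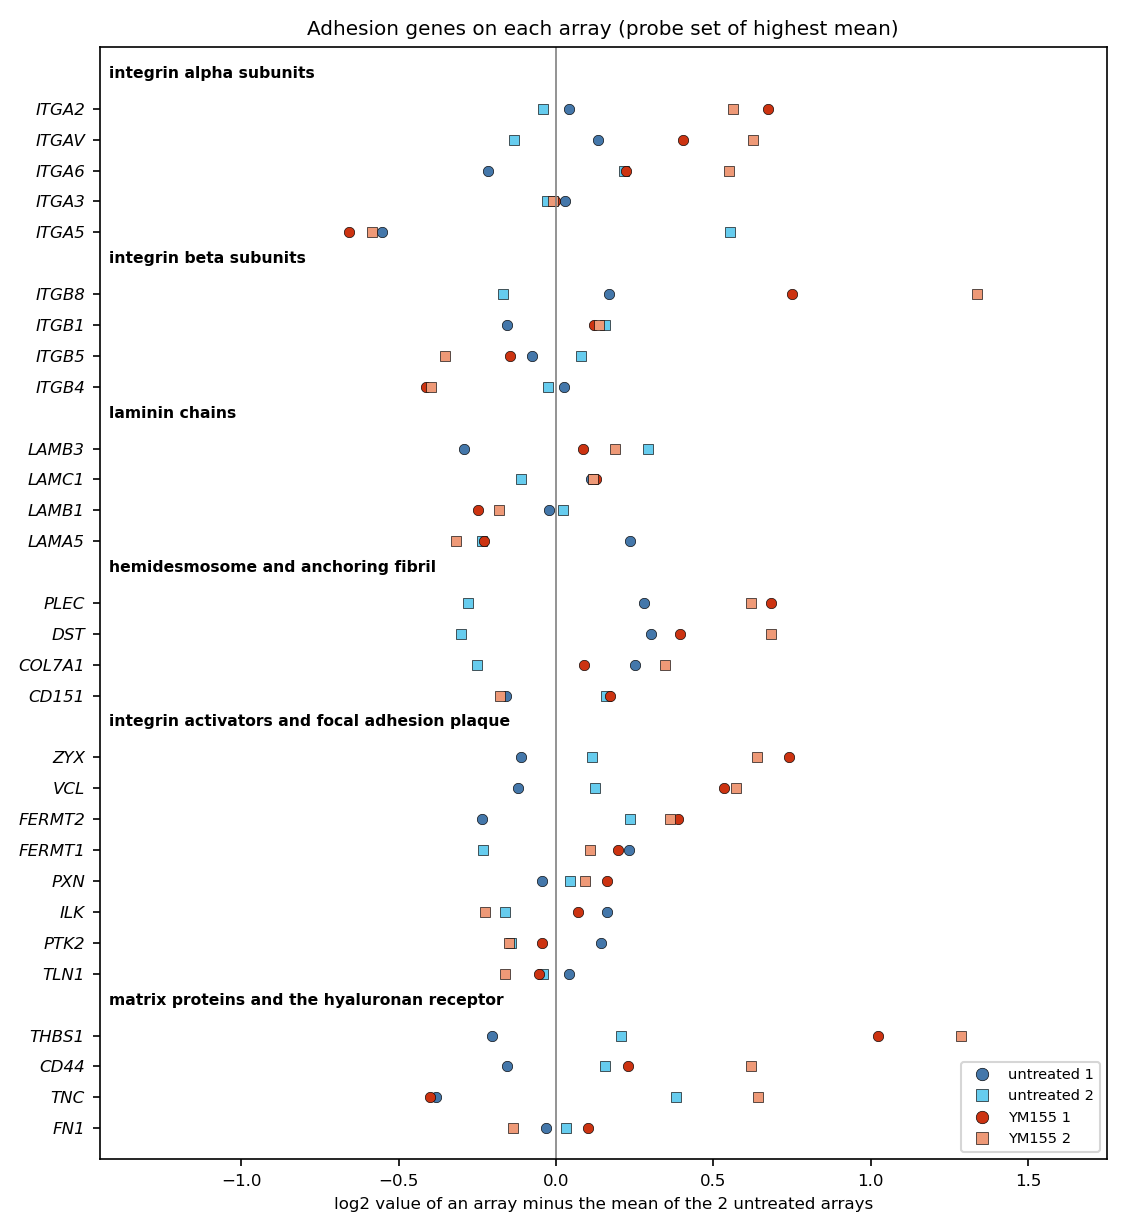
Log2 value of each adhesion gene on each of the 4 arrays, minus the mean of the 2 untreated arrays, by role (points are arrays; the grey line is the untreated mean). THBS1 and ITGB8 have both YM155 arrays furthest to the right, and for ITGA5 untreated replicate 2 stands apart from the other 3 arrays.

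The untreated arrays were further apart than the YM155 arrays, so each gene was also set against each untreated array. The median absolute gap between the untreated arrays was 0.31 log2 for the 29 genes and 0.23 for all genes, and between the YM155 arrays 0.10 and 0.12. The median difference of the members was 0.17 log2 against untreated replicate 1 and 0.08 against replicate 2. The YM155 mean lay on the same side of both untreated arrays for 19 of 29 members, against 62.5% of all genes. Among all genes the untreated arrays were at least 2-fold apart for 4.39%, and among the members for ITGA5 alone.

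**Figure D2:**
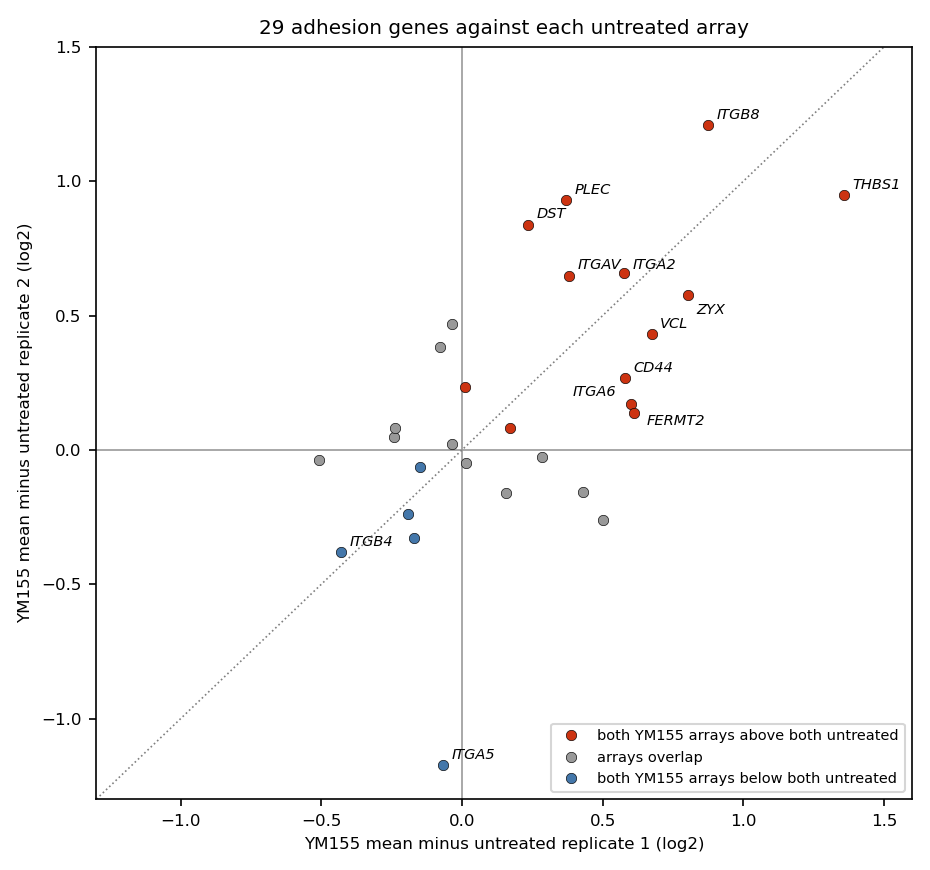
YM155 mean minus untreated replicate 1 (horizontal) and minus untreated replicate 2 (vertical), in log2, for the 29 genes; colour shows whether the arrays of the groups overlap, and the dotted line marks equal values. ITGB8, THBS1, ZYX, ITGA2, VCL, ITGAV and PLEC lie clear above 0 on both axes, and ITGB4 lies below it on both (-0.43 and -0.38). ITGA5 is at -0.07 against one untreated array and -1.17 against the other.

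Promoter sequence is shown for 4 of the genes higher at an unadjusted p under 0.05, THBS1, ITGB8, ZYX and VCL, so that members that stood higher can be read side by side, and for ITGA5, which had the most negative difference. They were chosen after their values were seen. Each run is the 250 bases before the RefSeq start, 5' to 3' on the gene's strand. Capitals mark matches on either strand to GGAATG, the core bound by TEAD factors, to TGANTCA, the AP-1 motif, to GGGCGG, the GC box bound by SP1, and to the CArG box of SRF.
THBS1, GRCh38.p14, chr15:39580829-39581078, plus strand: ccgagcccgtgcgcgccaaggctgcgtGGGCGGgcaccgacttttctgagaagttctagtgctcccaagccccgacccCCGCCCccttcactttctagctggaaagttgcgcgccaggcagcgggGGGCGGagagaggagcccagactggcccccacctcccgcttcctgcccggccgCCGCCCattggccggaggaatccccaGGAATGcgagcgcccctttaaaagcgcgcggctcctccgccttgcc
ITGB8, GRCh38.p14, chr7:20330650-20330899, plus strand: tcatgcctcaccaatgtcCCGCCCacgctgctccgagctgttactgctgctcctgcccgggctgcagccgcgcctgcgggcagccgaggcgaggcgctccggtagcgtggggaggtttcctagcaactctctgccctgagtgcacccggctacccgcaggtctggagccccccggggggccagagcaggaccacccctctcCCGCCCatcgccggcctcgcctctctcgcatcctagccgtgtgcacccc
ZYX, GRCh38.p14, chr7:143381095-143381344, plus strand: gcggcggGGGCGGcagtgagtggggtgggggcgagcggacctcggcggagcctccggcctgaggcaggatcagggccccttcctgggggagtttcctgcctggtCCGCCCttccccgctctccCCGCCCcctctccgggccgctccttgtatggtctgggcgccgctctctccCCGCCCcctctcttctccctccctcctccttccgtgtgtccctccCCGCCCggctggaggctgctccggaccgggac
VCL, GRCh38.p14, chr10:73997866-73998115, plus strand: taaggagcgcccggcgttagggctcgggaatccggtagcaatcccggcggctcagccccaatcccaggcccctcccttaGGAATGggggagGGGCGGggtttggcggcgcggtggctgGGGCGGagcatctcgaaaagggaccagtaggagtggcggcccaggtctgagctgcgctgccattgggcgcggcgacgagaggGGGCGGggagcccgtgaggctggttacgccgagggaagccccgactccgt
ITGA5, GRCh38.p14, chr12:54419267-54419516, minus strand: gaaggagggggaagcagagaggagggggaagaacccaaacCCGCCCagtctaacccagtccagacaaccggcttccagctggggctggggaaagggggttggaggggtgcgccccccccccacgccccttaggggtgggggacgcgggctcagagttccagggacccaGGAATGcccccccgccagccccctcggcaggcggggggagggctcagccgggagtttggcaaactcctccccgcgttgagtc
THBS1, VCL and ITGA5 each held 1 GGAATG, and ITGB8 and ZYX held none. The GC box letters occurred 4 times in THBS1, 2 times in ITGB8, 5 times in ZYX, 3 times in VCL and 1 time in ITGA5. No match to TGANTCA or to the CArG box lay in these 5 windows. For 23 of the 29 genes the promoter table held 33 starts. GGAATG was present in 6 of the 33 windows (of DST, ITGA5, ITGB1, PXN, THBS1 and VCL) and in 11.9% of all 35116 windows. The GC box was in 25 of 33 and in 42.6% of all, TGANTCA in 1 of 33 (LAMB3) and in 6.57% of all, and the CArG box in 0 of 33 and in 1.16% of all. No 2 of these matches overlapped in the windows shown. These are matches of letters in a window, not sites, and their part in the differences was not tested.

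Among the α subunits, the collagen receptor chain ITGA2, the vitronectin and fibronectin receptor chain ITGAV and the laminin receptor chain ITGA6 stood higher, ITGA5 lower and ITGA3 near 0. ITGA2 read 7.92 and 7.83 log2 without drug and 8.55 and 8.44 with it. Both YM155 arrays were higher, by 0.58 over untreated replicate 1 and 0.66 over replicate 2. The difference was 0.62 ± 0.13 log2 (SE, n = 2 per group), or 1.53-fold (limma adjusted p = 0.232), and its second probe set gave 0.50, also without overlap. ITGAV read 8.37 and 8.10 without drug and 8.64 and 8.86 with it, a difference of 0.51 ± 0.17 (limma adjusted p = 0.335). ITGA6, the α chain of the hemidesmosome integrin, read 8.87 and 9.30 without drug and 9.31 and 9.64 with it. Untreated replicate 2 and YM155 replicate 1 were nearly equal there, so the groups were separated by little, and the difference of 0.39 ± 0.21 (limma adjusted p = 0.536) was 0.60 from untreated replicate 1 and 0.17 from replicate 2. Its second probe set gave 0.14 with overlapping arrays.

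ITGA5, the α chain of the classical fibronectin receptor, had the most negative difference of all members, and 1 untreated array made most of it. It read 6.43 and 7.53 log2 without drug and 6.32 and 6.40 with it. Untreated replicate 1 lay beside the YM155 arrays, just above them, and only replicate 2 was high. The difference of -0.62 ± 0.38 (limma adjusted p = 0.577) was -0.07 without untreated replicate 2 and -1.17 without replicate 1. ITGA3, the α chain that pairs with ITGB1 to bind laminin, had the 4 arrays between 7.43 and 7.48 log2 and a difference of -0.01 ± 0.12 (limma adjusted p = 0.993).

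The β subunits differed in direction, with ITGB8 high and ITGB4 low after YM155. ITGB8 pairs with the ITGAV chain and is known for binding latent TGF-β. It read 7.53 and 7.20 log2 without drug and 8.11 and 8.70 with it. Its 2 YM155 arrays differed by 0.59 but both exceeded the untreated ones, by 1.04 ± 0.25 log2 or 2.06-fold (limma adjusted p = 0.254). The 4 ITGB8 probe sets past the filter were all positive, at 1.25, 1.04, 0.34 and 0.24, and 3 of them had no overlap. The probe set at 1.25 read 3.84 and 3.72 log2 without drug, not far above the filter's limit of 3.32, and 5.02 and 5.04 with it.

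ITGB4, the β chain of the hemidesmosome integrin, was the member with the clearest lower values. It read 9.03 and 8.98 log2 without drug and 8.59 and 8.61 with it. The gap between the groups was larger than that within either, and the difference of -0.41 ± 0.12 or 1.32-fold lower (limma adjusted p = 0.315) was between -0.43 and -0.38 whichever array was left out. Further probe sets of ITGB4 gave -0.37 and -0.47, both without overlap, the second of them dim at 4.09 to 4.73 log2. The remaining 2 gave 0.08 and 0.02 with overlapping arrays and were dim too, at 3.61 to 4.67 log2. The one at 0.02 was the only ITGB4 probe set without the _s_at suffix, so restricting to such probe sets turned the sign. ITGB5, another partner of the ITGAV chain, stood at -0.25 ± 0.15 (limma adjusted p = 0.564), with its other probe sets between -0.28 and 0.03. ITGB1, the β chain shared by most matrix receptors, read 10.95 and 11.27 without drug and 11.23 and 11.25 with it. Both YM155 arrays lay between the untreated ones, and the difference was 0.13 ± 0.16 (limma adjusted p = 0.793). Its 2 further probe sets past the filter gave -0.10 and -0.13.

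Laminin chains had differences of both signs, of 0.27 log2 or less in size at the brightest probe sets. LAMB3, a chain of the epithelial laminin under hemidesmosomes, read 10.11 and 10.70 log2 without drug and 10.49 and 10.59 with it, and the YM155 arrays lay between the untreated ones. Its difference was 0.14 ± 0.23 (limma adjusted p = 0.855), 0.43 from untreated replicate 1 and -0.16 from replicate 2. LAMA5, the α chain of the widespread basement membrane laminins, read 9.75 and 9.28 without drug and 9.28 and 9.19 with it, a difference of -0.27 ± 0.20 (limma adjusted p = 0.638) that was -0.04 without untreated replicate 1. LAMB1, a β chain of the same laminins, stood lower in both of its probe sets without overlap, at -0.21 ± 0.12 (limma adjusted p = 0.555) and -0.62. In LAMC1, their γ chain, the probe sets had opposite signs, 0.12 ± 0.14 (limma adjusted p = 0.777) and -0.43. The second read 9.52 in untreated replicate 2 and between 8.61 and 8.76 on the other 3 arrays.

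In the hemidesmosome, the plakin linker genes PLEC and DST stood higher, while the 2 integrin chains differed in sign, ITGA6 at 0.39 and ITGB4 at -0.41. PLEC, which encodes plectin, read 8.54 and 7.99 log2 without drug and 8.95 and 8.88 with it. Both YM155 arrays were above both untreated arrays, more so above replicate 2 (0.93) than replicate 1 (0.37), with a difference of 0.65 ± 0.22 or 1.57-fold (limma adjusted p = 0.348). Its second probe set gave 0.55, without overlap. That one was dimmer, at 4.59 and 4.53 log2 without drug and 5.40 and 4.81 with it, and its YM155 arrays were 0.59 apart. DST, which encodes dystonin, including the epithelial plakin of the hemidesmosome, read 9.28 and 8.67 without drug and 9.37 and 9.66 with it. Untreated replicate 1 lay close to YM155 replicate 1, and the difference of 0.54 ± 0.25 (limma adjusted p = 0.469) was 0.24 against untreated replicate 1 and 0.84 against replicate 2. Of its 7 probe sets past the filter, 6 were positive and 1 gave -0.15, and 5 of the positive ones had no overlap. One of those 5, at 3.28 and 3.26 log2 without drug and 3.71 and 3.30 with it, passed the filter only through its YM155 arrays and supports nothing. With all probe sets averaged, DST stood at 0.25, and without suffixed probe sets at 0.12. COL7A1, the type VII collagen of anchoring fibrils, had overlapping arrays and 0.22 ± 0.22 (limma adjusted p = 0.741), and CD151, a tetraspanin that associates with laminin-binding integrins, was at -0.00 ± 0.20 (limma adjusted p = 0.9997).

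In the focal adhesion plaque, zyxin and vinculin stood higher, while talin, integrin-linked kinase and focal adhesion kinase had differences between -0.11 and -0.08. ZYX, the gene of the LIM protein zyxin that gathers on tensed actin bundles, read 7.26 and 7.48 log2 without drug and 8.11 and 8.01 with it. The difference was 0.69 ± 0.15 or 1.61-fold (limma adjusted p = 0.232), 0.80 from untreated replicate 1 and 0.58 from replicate 2, and the second probe set gave 0.79 without overlap. VCL, the gene of vinculin, which joins talin to actin, read 10.34 and 10.59 without drug and 11.001 and 11.04 with it. Both YM155 arrays were again higher, by 0.55 ± 0.15 or 1.47-fold (limma adjusted p = 0.273), and the arrays left out gave 0.43 to 0.67. Its second probe set lay below the filter.

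The kindlins, which bind β integrin tails beside talin, varied between the untreated arrays. FERMT2, the broadly expressed kindlin, read 7.23 and 7.71 log2 without drug and 7.86 and 7.83 with it. The difference of 0.37 ± 0.20 (limma adjusted p = 0.516) was 0.61 from untreated replicate 1 and 0.14 from replicate 2, and its other probe sets gave 0.15 and -0.10. FERMT1, the epithelial kindlin, gave 0.15 to 0.27 in its 3 probe sets past the filter, all with overlap, and its difference was negative (-0.08) without untreated replicate 2. The scaffold gene PXN stood at 0.13 ± 0.13 (limma adjusted p = 0.734) and TLN1, which encodes talin, the link from integrin to actin, at -0.11 ± 0.13 (limma adjusted p = 0.784), with dimmer TLN1 probe sets at -0.25 and 0.06. ILK was at -0.08 ± 0.19 (limma adjusted p = 0.913) and PTK2, focal adhesion kinase, at -0.10 ± 0.16 (limma adjusted p = 0.850). One further PTK2 probe set read 8.50 log2 in untreated replicate 2 and 5.79 to 6.06 on the other 3 arrays, which gave it a difference of -1.32 that the brighter PTK2 probe sets did not share.

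Of the matrix genes, THBS1 had the largest difference, and at the brightest probe sets on all 4 arrays the largest of all members. With probe sets averaged it was 0.509, below ZYX (0.74), ITGB8 (0.72), PLEC (0.60), ITGA2 (0.56), VCL (0.55) and ITGAV (0.515). On the negative side ITGA5 (-0.62) and PTK2 (-0.54) were then larger in size. ITGB8 also exceeded THBS1 without untreated replicate 1 (1.21 against 0.95) and without YM155 replicate 1 (1.34 against 1.29). THBS1 encodes thrombospondin 1, a secreted matrix protein that binds CD47, CD36 and integrins. It read 9.74 and 10.15 log2 without drug and 10.97 and 11.23 with it. Both YM155 arrays were above both untreated arrays, by 1.15 ± 0.20 log2 or 2.22-fold (limma adjusted p = 0.197), 1.36 from untreated replicate 1 and 0.95 from replicate 2. The other probe sets were less clear: they gave 1.49, 0.71, 0.18, 0.09 and -0.57. In all 6 the YM155 mean exceeded untreated replicate 1, by 0.51 to 2.39, but it exceeded untreated replicate 2 in only 3, with a range from -2.23 to 0.95. Only the brightest and the one at 1.49 had no overlap.

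CD44, the hyaluronan receptor of basal cells and a gene with many splice variants, had the most probe sets, and they disagreed in sign. The brightest read 10.91 and 11.22 log2 without drug and 11.29 and 11.69 with it, a difference of 0.42 ± 0.20 (limma adjusted p = 0.484) with groups just apart. Of 12 probe sets past the filter, 6 were positive and 6 negative, from -0.38 to 1.32. In all 12 untreated replicate 1 was the lowest array, and in 8 untreated replicate 2 was the highest. The YM155 mean was thus 0.24 to 1.81 above untreated replicate 1 in every one, and below untreated replicate 2 in 8. The probe sets at 1.32 and 1.08 read higher in YM155 than in either untreated array: the first read 4.35, 5.33, 6.08 and 6.25 and the second 7.10, 8.28, 8.75 and 8.79 log2 in untreated replicates 1 and 2 and YM155 replicates 1 and 2. One at 0.74 also had no overlap. In the probe-set fit the probe sets at 1.32 and 1.08 did not pass (limma adjusted p = 0.348 and 0.445).

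**Figure D3:**
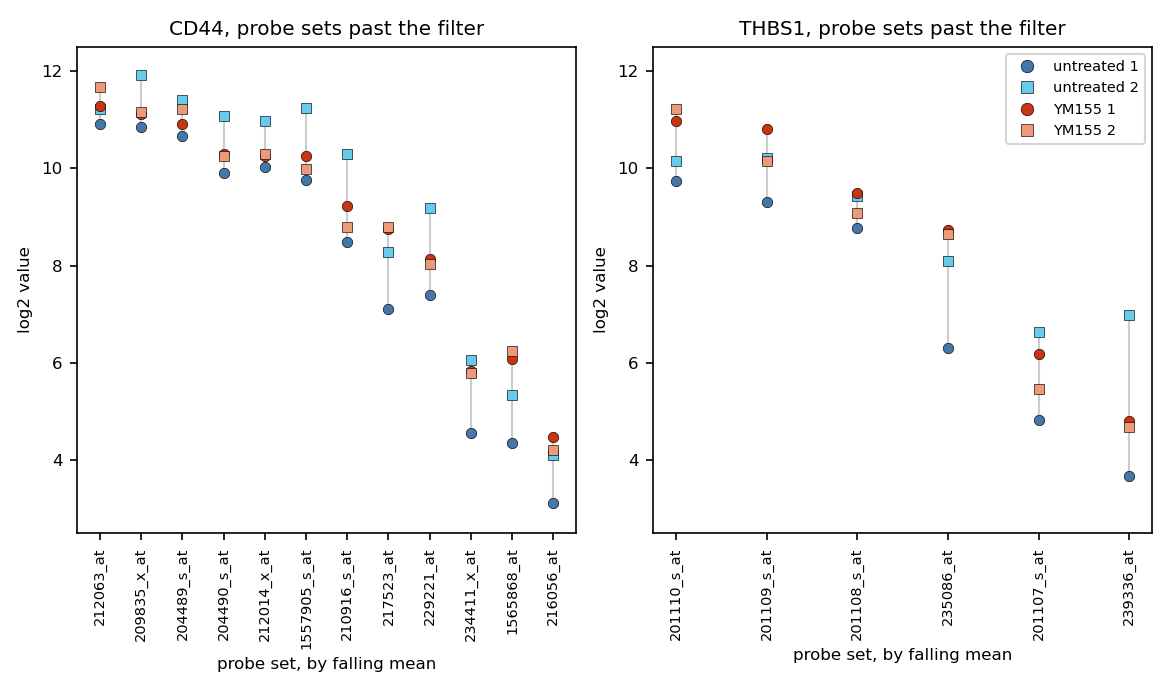
Log2 value of each CD44 (left) and THBS1 (right) probe set past the filter on the 4 arrays, in order of falling mean; grey bars span the arrays. Untreated replicate 1 is the lowest array in all 12 CD44 and all 6 THBS1 probe sets, and untreated replicate 2 is the highest in 8 and 2 of them.

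FN1, which encodes fibronectin, had overlapping arrays, its difference was -0.02 ± 0.15 (limma adjusted p = 0.981), and its 5 probe sets past the filter lay between -0.07 and 0.03. TNC, the matrix protein tenascin C, varied most within the treated group and read 8.002 and 8.76 log2 without drug and 7.98 and 9.02 with it. Its difference of 0.12 ± 0.44 (limma adjusted p = 0.949) was smaller than the spread in either group.

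Across all probe sets of the members, 84 of 100 passed the filter. Of these, 52 had positive and 32 negative differences, 28 lay above both untreated arrays (against 19.4% of all probe sets) and 8 below (against 23.9%). The 52 and the 28 include the dim DST probe set that passed the filter only through its YM155 arrays. By limma over 32768 probe sets, 0 of the 84 passed at an adjusted p of 0.05 and 0% of all did, with 12 higher (against 5.03%) and 3 lower (against 6.06%) at an unadjusted p under 0.05. At 12 of the 84 the untreated pair was 2-fold or more apart (7 of CD44, 3 of THBS1, 1 each of ITGA5 and PTK2), against 5.16% of all probe sets. Probe sets of 1 gene read transcripts of that gene on the same arrays and are not independent. Of 21 genes with several probe sets past the filter, 10 had differences of both signs.

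Other genes of the same structures, 95 that are no members, were also listed. Of the 79 tested, 49 had positive and 30 negative differences, with a median of 0.07 log2. By limma 0 passed the adjusted threshold, and at an unadjusted p under 0.05 there were 2 higher (KANK1 and PIP5K1C; 2.53%, against 5.23% of all genes) and 2 lower (CRKL and ITGA2B; 2.53%, against 7.48%). The YM155 arrays lay above both untreated arrays for 21 (26.6%, against 19.3% of all genes) and below for 13 (16.5%, against 25.6%). LAMA4, in the 49 and the 21, and ITGA1, in the 49, passed the filter only through their YM155 arrays.

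Among 53 other focal adhesion genes, 35 were positive, and KANK1 had the largest difference. KANK1 encodes a protein of the rim of focal adhesions that binds talin. It read 5.43 and 5.46 log2 without drug and 6.54 and 6.82 with it. This was 1.24 ± 0.15 log2 (limma adjusted p = 0.163), 1.25 from untreated replicate 1 and 1.22 from replicate 2, although its second probe set gave 0.12. Next among genes without overlap came PIP5K1C, the lipid kinase that makes the phosphoinositide talin binds, at 0.63 ± 0.20 (limma adjusted p = 0.335), and PPFIA1, which encodes liprin-α1, at 0.49, where 3 further probe sets were negative. On the lower side stood KANK2 (-0.50), ELMO2 (-0.41) and the adaptor gene CRKL (-0.36 ± 0.12, limma adjusted p = 0.355). The second CRKL probe set gave only -0.02, and the 3 probe sets of KANK2 ran from -0.50 to -0.05. Leaving out 1 untreated array moved PIP5K1C between 0.38 and 0.88, PPFIA1 between 0.18 and 0.81, KANK2 between -0.74 and -0.26 and ELMO2 between -0.61 and -0.21. Without untreated replicate 1, limma called 5 of the 79, namely KANK1, PIP5K1C, GIT2 and PAK2 higher and NEDD9 lower, beside 8.01% of all genes. The arrays of GIT2, PAK2 and NEDD9 overlapped, and without untreated replicate 2 GIT2 was at -0.26, PAK2 at 0.03 and NEDD9 at 0.07.

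The 13 other integrin genes tested were split 7 to 6, with ITGA11 (0.29), ITGB2 (0.22) and ITGB3 (0.12) the largest positive and ITGA2B (-0.32), ITGAL (-0.16) and ITGA8 (-0.10) the largest negative differences among genes without overlap. One of the 3 ITGB2 probe sets past the filter was negative, at -0.24, and the second ITGA2B probe set gave -0.11. All 6 genes were dim, at most 5.40 log2 on any array. ITGA1, among the 7 positive genes, had an untreated mean of 3.30 log2, under the filter's limit of 3.32. It passed only through its YM155 arrays, which overlapped the untreated ones. The 13 other basement membrane genes were likewise split 7 to 6. Those without overlap were LAMA4 (0.33), LAMA2 (0.07) and LAMA1 (0.03), dim at 3.24 to 5.01 log2, and LAMB2 (-0.26) and HSPG2 (-0.17), a laminin chain and the heparan sulfate proteoglycan perlecan. LAMA4 had an untreated mean of 3.31 log2, under the filter's limit of 3.32, and passed only through its YM155 arrays. LAMB2 was -0.10 and HSPG2 -0.06 from untreated replicate 2, and the second HSPG2 probe set gave -0.05.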

How the data were processed

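Total RNA of KYSE410 cells was measured on 4 Affymetrix 3' expression arrays, with labelled cRNA made from 200 ng, per the labels' protocols. The authors deposited 1 intensity per probe set, made with RMA per the submitters' processing notes, whose version is not given in the sources used here. Each deposited intensity lay between 2.42 and 15214, a linear range, and was turned into log2. RMA sets arrays to a common distribution (medians 16.0 to 16.2), so a shift of all genes is not measured. Gene symbols came from the platform annotation: of 54675 probe sets, 62 were controls, 41091 had 1 symbol, 1801 several and 11721 none.

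Probe sets below the 40th percentile of mean log2 (3.32) were left out, which kept 32768, and the brightest stood for each of 14043 genes. Groups were compared with limma 3.58.1 in R 4.3.3 (lmFit, eBayes, two-sided), with Benjamini-Hochberg adjustment over all genes or, separately, all probe sets; it was tested on simulated data. Limma had 2 residual and 2.69 prior degrees of freedom. The number of arrays limits the precision. The members and lists were chosen with earlier results of these data known.

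Values on each array are given for the 14 members of largest absolute difference and the brightest of each role, plus members where a limit needed them. Other probe sets of a member are given where they differ in sign or by over 0.5 log2 and in some further cases. From each list of other adhesion genes, up to 3 of each sign without overlap are named. Genes named for an unadjusted p, for a call without untreated replicate 1, or for promoters were named after their values were seen. Promoters are RefSeq windows, cut to the 250 bases before the start; probe sets have no coordinates here, since no build is named for them. Alternatives tried were no filter or one at the 60th percentile, averaging all probe sets per gene, dropping those with an _x_at or _s_at suffix, quantile normalization on top of RMA, median centring, trended robust eBayes, the replicate number as a block, and each array left out.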

Additional observations from a re-analysis of the deposited data

How the results depend on the processing

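With no filter or a 60th percentile filter, averaged probe sets, _x_at and _s_at probe sets dropped, quantile normalization repeated, median centring, trended robust eBayes, or the replicate block, limma called 0 genes, 0 members and 0 other adhesion genes at an adjusted p under 0.05. The arrays left out in turn gave 0 to 1125 genes called, 0 to 2 members (ITGA5 and PLEC, both without untreated replicate 1), 0 to 5 other adhesion genes, 18 to 20 members with positive differences, and a median of the members from 0.083 to 0.172 log2. The replicate numbers do not pair the arrays by any label, and deviations of same-numbered arrays had a correlation of 0.00036 over genes; with the replicate block 0 genes were called and 18 members were positive. Signs of uncalled members turned for ITGB1 (-0.03) and LAMC1 (-0.16) with averaged probe sets, ITGB1 (-0.10) and ITGB4 (0.02) without the suffixes (22 members left, 15 positive), and ITGA3 and CD151 with either other normalization (0.03 and 0.02 by quantiles, 0.0013 and 0.0058 by centring). Members lost without the suffixes were ITGA3, LAMA5, CD151, FERMT2, VCL, ZYX and FN1, so ZYX and VCL rest on suffixed probe sets alone. Averaged probe sets also moved THBS1 from 1.15 to 0.51, DST from 0.54 to 0.25, CD44 from 0.42 to 0.20, FERMT2 from 0.37 to 0.14 and PTK2 from -0.10 to -0.54, with 16 members positive. Over the arrays left out, 10 members, ITGA3, ITGB1, LAMB3, COL7A1, CD151, FERMT1, PTK2, ILK, FN1 and TNC, changed sign. With 2 arrays per group, differences of about the size of the gap between the untreated arrays are not separable from it. The cause of these changes was not tested.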
